A study of Vitis vinifera with 2 samples.

Results

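The grapevine reference genome holds sequences that were assigned to a chromosome but not given a position on it, and these carry the word random in their names. All transposable elements (TEs) in the 6 deposited TE tables whose sequence name contains that word were taken, and they were set against the TEs of the same class on chromosomes 1 to 19. They numbered 7622 of 184251 TEs, or 4.14%, and they lay on 13 random sequences, while 176629 TEs lay on the chromosomes. Methylation had been measured by whole-genome bisulphite sequencing of the grapevine (Vitis vinifera) cultivar Chardonnay, in 1 library of young leaves and 1 library of embryogenic callus (EC), a proliferating culture from which somatic embryos can form. The EC had been raised from anthers and kept on solid medium in the dark, with several dishes pooled, and the leaves came from the same vines. Both tissues therefore share their cultivar and differ in organ, culture and light at once, which cannot be told apart. Genic TEs are those that overlap an annotated gene by at least 1 bp and intergenic TEs are the others, as the authors divided them.

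Plant DNA is methylated at cytosines in 3 contexts, CG, CHG and CHH, where H is A, C or T. CG methylation is copied after DNA replication by MET1 and CHG methylation is kept up by CMT3 together with histone methylation. CHH methylation has no partner cytosine on the other strand, so it has to be set anew by DRM2, which is guided by small RNAs, or by CMT2 in long heterochromatic TEs. All 3 marks are known for keeping TEs silent. Random sequences are often rich in repeats, since repeats can prevent a piece of an assembly from being placed.

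The random sequences differed widely in their number of TEs and in the share of these that were genic. chr18_random held 2621 TEs (34.4% of the members), chr13_random 1316, chr12_random 799, chr3_random 673 and chr7_random 632. A further 387 lay on chr17_random, 258 on chr1_random, 238 on chr9_random, 233 on chr10_random, 179 on chr5_random and 161 on chr16_random, and chr11_random and chr4_random had fewer than 100 each, with 83 and 42. The members were poorer in genic TEs than the chromosomes, with 1320 genic TEs (17.3%) against 23.8% on the chromosomes. This share was lowest on chr9_random, where 1 TE of 238 was genic, and stood at 9.94% on chr16_random and 10.9% on chr1_random. chr10_random (31.3%) and chr11_random (56.6%) lay above their own chromosomes in this respect, and the other 11 random sequences lay below theirs.

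The TEs themselves were somewhat longer on the random sequences. The median length was 338.5 bp for genic and 357 bp for intergenic TEs, against 304 and 316 bp on the chromosomes, and the longest member measured 13913 bp. Among the members, 24.3% overlapped another listed TE, against 22.0% on the chromosomes, so neighbouring values are not independent. A TE was listed in a context only where its effective coverage exceeded 20 in both libraries. For genic members 751 TEs were listed for CG, 860 for CHG and 1317 for CHH, and for intergenic members the numbers were 3860, 3951 and 6294. The depth behind each value is unknown. With 1 library per tissue there is no replicate check and no test, so the spread is given over the random sequences with at least 10 TEs of the class and beside the range over the 19 chromosomes. Each random sequence with 100 or more TEs is described on its own.

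Averaged over all members, CG and CHH methylation was higher in EC than in leaf in both classes, while CHG methylation fell in genic TEs and rose in intergenic TEs. Genic members had a mean CG level of 84.7% in leaf and 87.1% in EC, a CHG level of 50.1% and 43.3%, and a CHH level of 1.97% and 20.9%. Intergenic members had a CG level of 83.3% in leaf and 88.0% in EC, a CHG level of 64.4% and 75.8%, and a CHH level of 2.79% and 34.4%. Of these levels the classes stood furthest apart in CHG in EC. The change was smaller (or more negative) in genic than in intergenic TEs on 7 of 9 random sequences for CG, on 10 of 10 for CHG and on 10 of 10 for CHH.

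**Figure D1:**
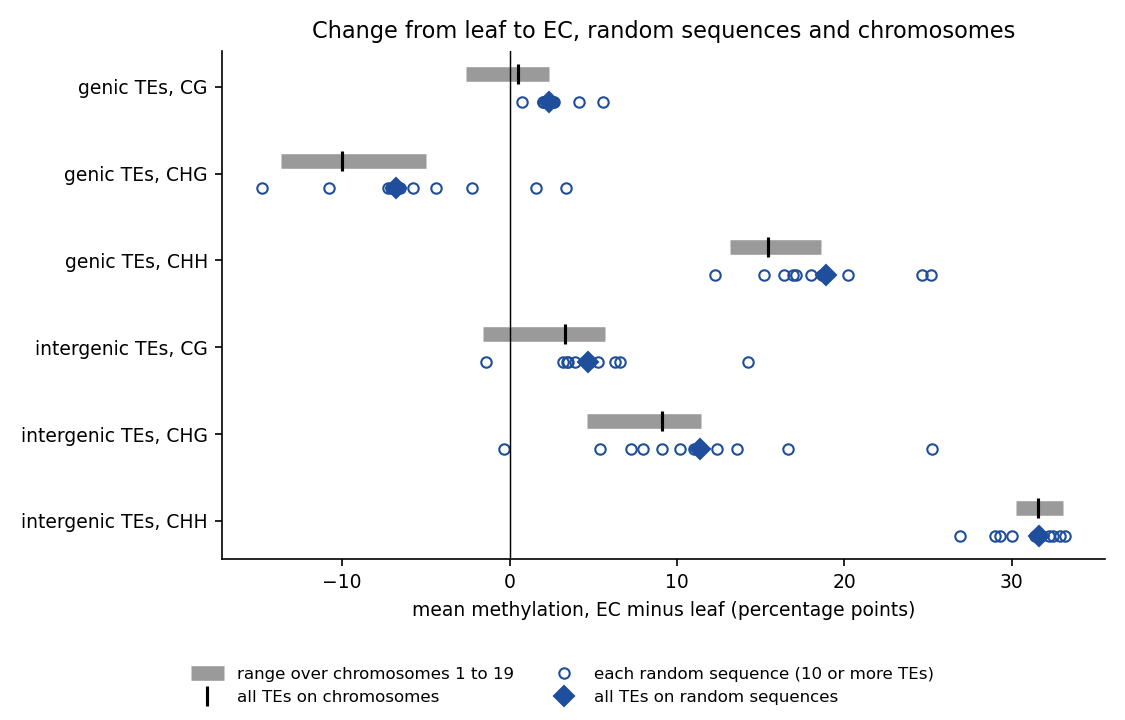
Mean methylation in EC minus leaf, in percentage points, by class and context: grey bars span chromosomes 1 to 19, black ticks mark all chromosome TEs, diamonds mark all TEs on random sequences and open circles mark single random sequences. The diamonds for genic CG and genic CHH lie to the right of the grey bars, at 2.38 and 18.9, and the open circles spread most in CHG.

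Set against the chromosomes, the mean change of the members was more positive, or less negative, in each combination of class and context but intergenic CHH, where both were 31.6 points. The CG change of genic members was 2.38 percentage points (SD 1.38 over 9 random sequences), against 0.50 on the chromosomes, whose single values ran from -2.61 to 2.34. All 19 chromosomes therefore lay below it, the highest by a small margin. Without chr1_random, chr10_random or chr13_random the change was 2.32, 2.29 or 2.33 points, below the 2.34 of that chromosome. Each of the 9 random sequences lay above its own chromosome, while chr16_random, not counted with its 9 listed genic TEs, lay below. The CHH change of genic members was 18.9 points (SD 4.003, n = 10 random sequences) and also lay above all 19 chromosomes, which ran from 13.2 to 18.6. Without chr18_random it was 16.5 points, inside that range. In CHG genic members fell by 6.82 points (SD 5.38, n = 10) and the genic TEs of the chromosomes fell by 10.03 points, and 17 of 19 chromosomes had a more negative value than the members.

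For intergenic members the CG change was 4.67 points (SD 3.75, n = 11 random sequences), above 16 of 19 chromosomes. The CHG change was 11.4 points (SD 6.55, n = 11), above 18 of 19 chromosomes, which ran from 4.62 to 11.5. The CHH change was 31.6 points (SD 1.94, n = 11) and was matched on the chromosomes, where it was also 31.6. In EC the level itself lay above every chromosome for genic CG, CHG and CHH and for intergenic CHG. Without chr18_random the EC level of genic members was 39.4% in CHG and 18.5% in CHH. Both of these lay below the highest chromosome, at 42.8% and 20.7%.

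chr18_random weighed heavily in these differences. The members exceeded the chromosomes by 1.88 points in genic CG, by 3.21 in genic CHG, by 3.46 in genic CHH, by 1.34 in intergenic CG and by 2.25 in intergenic CHG. Without chr18_random the differences were 2.04, 1.48, 1.09, 1.28 and 0.99 points. The genic CG difference thus did not rest on that sequence, while the other genic differences and the intergenic CHG difference shrank more than 1.5 times. The 6 TE length classes gave the same direction in genic CHG, genic CHH, intergenic CG and intergenic CHG, where the members lay above the chromosomes in 6 of 6 classes, and in genic CG they did so in 5 of 6. Taking medians moved the genic CHG difference to 0.83, the intergenic CG difference to 0.38 and the intergenic CHG difference to 1.2. When TEs below 20% in both tissues were left out, the genic CHG difference was 4.97 and the genic CHH difference was -0.10.

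A member was called higher or lower where EC and leaf were 10 or more percentage points apart. Intervals of shares are Wilson 95% intervals, in which each TE counts as an independent unit, and they cover neither plants nor libraries. Of genic members, 856 of 1317 (65.0%, interval 62.4 to 67.5%) were higher in CHH, where 52.8% of all genic TEs in the series were. In CHG 166 of 860 (19.3%, interval 16.8 to 22.1%) were higher, against 13.9% of all genic TEs, and 325 (37.8%) were lower, against 40.7%. In CG 105 of 751 (14.0%) were higher, against 12.4%, and 55 (7.32%) were lower, against 11.2%. The genic members thus had a smaller share than the series among the falls in CG, while their shares of CG rises and CHG falls were near the background. Their share of CHH rises was the larger one, but within the factor of 1.5 inside which shares were taken as the same. The CHG rises rested on chr18_random, which held 72 of the 166, and without it 15.1% of genic members were higher in CHG, near the background. In CHH the share without it was 61.5%. A single genic member was lower in CHH, where 0.0369% of all genic TEs were.

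Of intergenic members, 5873 of 6294 (93.3%) were higher in CHH, against 89.7% of all intergenic TEs, and 1 was lower, against 0.0377%. In CHG 2195 of 3951 (55.6%, interval 54.0 to 57.1%) were higher, against 51.8%, and 378 (9.57%) were lower, against 12.3%. Without chr18_random the share higher in CHG was 52.1%, near the background. In CG 772 of 3860 (20%) were higher, near the background of 19.8%, and 196 (5.08%) were lower, against 8.47%. In CG the intergenic members thus had a smaller share of falls than the series and a similar share of rises.

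Among TEs that reached 20% in leaf, EC or both, 480 of 747 genic members (64.3%, interval 60.8 to 67.6%) had the higher CG level in EC, against 55.8% on the chromosomes. For CHG it was 245 of 661 genic members (37.1%, interval 33.5 to 40.8%), against 31.8%, but without chr18_random this share was 30.7%, below the chromosomes. Intergenic members were higher in EC in 68.6% for CG and in 81.1% for CHG, against 65.3% and 77.7% on the chromosomes. Without chr18_random the intergenic CHG share was 78.5%, near that of the chromosomes. For CHH 592 of 593 genic and 5346 of 5348 intergenic members were higher in EC, as were 99.9% of the TEs of either class in the whole series. Mean CHH in leaf was 1.97% in genic and 2.79% in intergenic members, so nearly all of these TEs reached 20% through EC. The CHH shares were thus largely set by the minimum level. With no minimum level 95.7% of genic members were higher in EC.

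CHG methylation was then divided into low (under 20%), middle and high (60% or more) levels. Of the genic members 51.3% were high in leaf and 38.8% in EC, while 26.2% were low in leaf and 32.7% in EC. On the chromosomes 28.8% of genic TEs were high in EC and 42.2% were low. Of the 441 genic members that were high in leaf, 285 (64.6%) stayed high, 134 (30.4%) moved to the middle and 22 (4.99%) became low, whereas 53.1% stayed high on the chromosomes and 8.96% became low. The genic members thus held a larger share at the high level than the chromosomes in both tissues, and more of them stayed there. Without chr18_random the share that was high was 48.2% in leaf, near the 45.8% on the chromosomes, and 33.7% in EC.

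**Figure D2:**
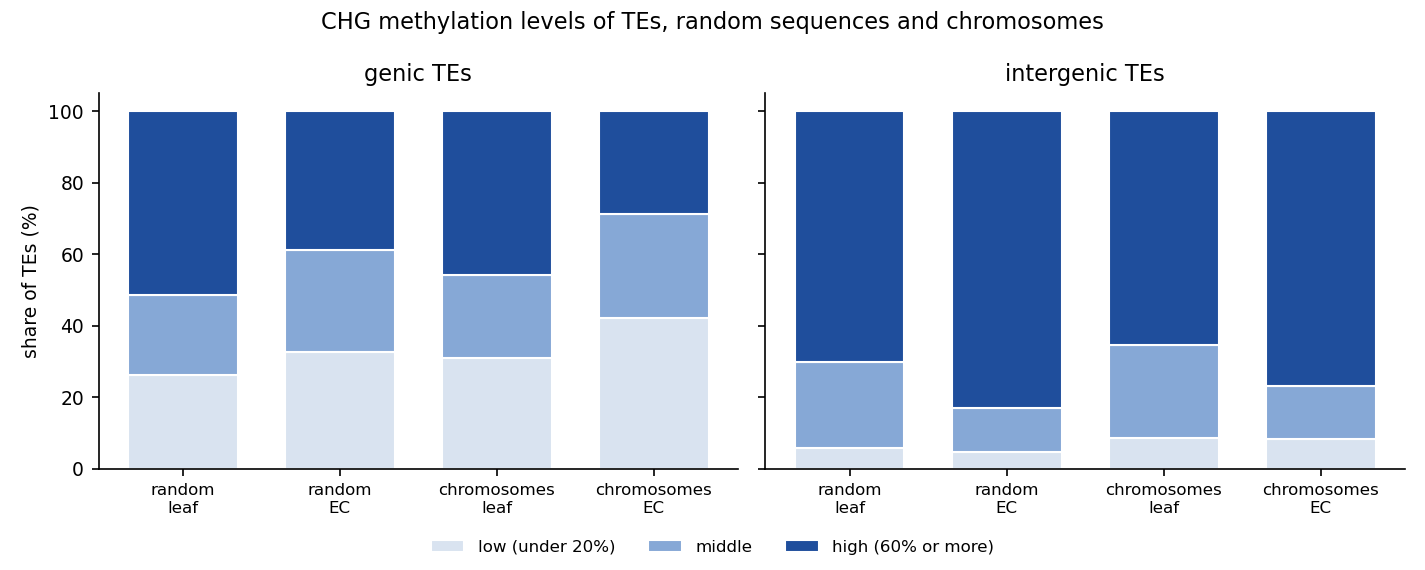
Share of TEs, in percent, at low (under 20%), middle and high (60% or more) CHG methylation in leaf and EC, for genic and intergenic TEs on random sequences and on chromosomes. The high share of genic TEs fell from 51.3% to 38.8% on random sequences and from 45.8% to 28.8% on chromosomes, and that of intergenic TEs rose from 70.2% to 83.2% and from 65.3% to 76.8%.

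Intergenic members moved the other way. The high level held 70.2% of them in leaf and 83.2% in EC, and 682 of the 951 at the middle level in leaf (71.7%) became high, against 65.0% on the chromosomes. Of the 2775 that were high in leaf, 2554 (92.0%) stayed high, near the 89.7% on the chromosomes. A low CHG level was found in 5.69% of them in leaf and 4.73% in EC, against 8.48% and 8.21% on the chromosomes.

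The contexts could be read together in the 654 genic and 3354 intergenic members that were listed in all 3. CHG and CHH were both higher in EC by at least 10 points in 1899 intergenic members (56.6%), and CG joined them in 496 (14.8%), against 53.6% and 13.8% on the chromosomes. In 1370 of them (40.8%) CHG was higher while CG moved by less than 10 points, near the 38.3% on the chromosomes. Among genic members, CHG was lower while CHH was higher in 179 (27.4%), against 23.2% on the chromosomes, and both were higher in 128 (19.6%), against 14.1%. A fall in CHG and a rise in CHH on the same element was thus more frequent in genic members than a joint rise.

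The single random sequences spread more than the chromosomes in CHG. The SD of the intergenic CHG change was 6.55 points over 11 random sequences and 1.68 points over 19 chromosomes. In genic CG the spread was about the same, with an SD of 1.38 points over 9 random sequences and 1.28 over the chromosomes. The random sequences are shorter and hold fewer TEs, and the part of this in their spread was not tested. Single sequences were therefore also set against chromosome windows of 500 kb with at least 30 TEs. These windows are not matched in size to the longer sequences. The last TE ends at 5170003 bp on chr18_random and at 3268257 bp on chr13_random, and larger windows were not tested.

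**Figure D3:**
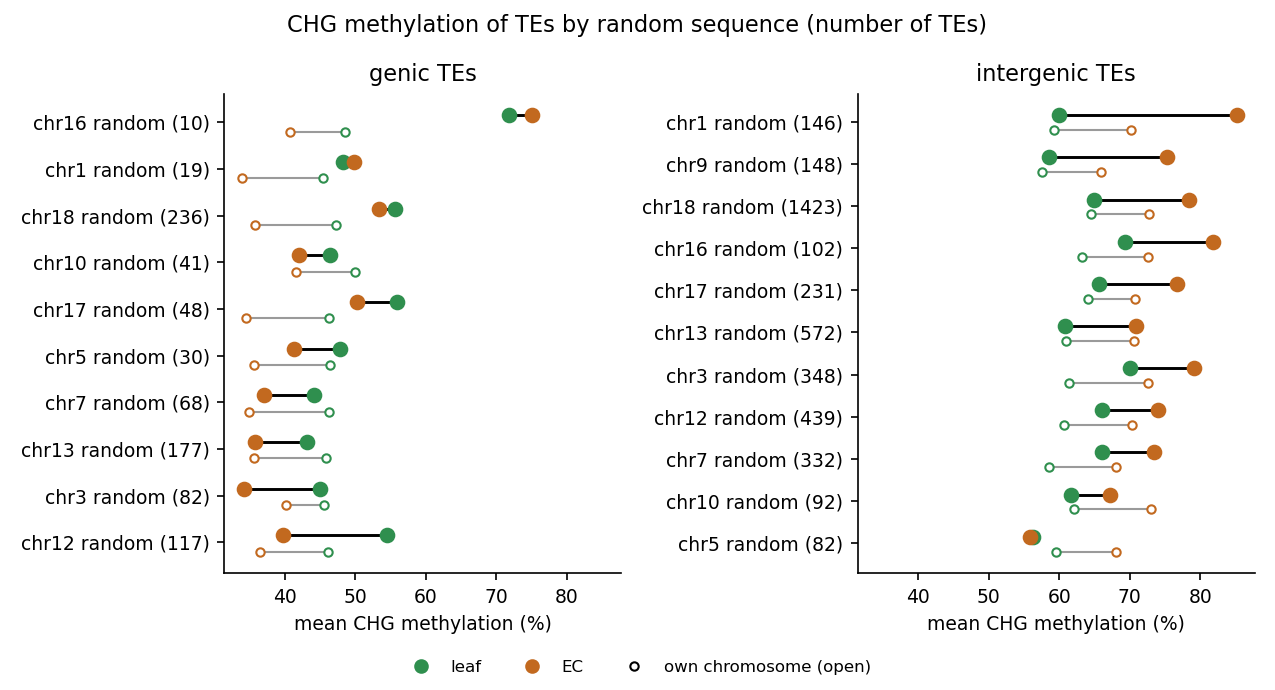
Mean CHG methylation in percent in leaf (green) and EC (orange) for each random sequence with at least 10 TEs of the class, ordered by change, with the number of TEs in brackets and the own chromosome in small open circles. Intergenic TEs of chr1_random rose from 59.9% to 85.1% and those of chr5_random stayed near 56%, while genic TEs fell most on chr12_random, from 54.4% to 39.7%.

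Of the random sequences with 100 or more TEs, chr1_random had the largest rise of intergenic TEs in CG and CHG. Their CHG level was 59.9% in leaf and 85.1% in EC, a change of 25.2 points over 146 TEs, against 11.04 points on chromosome 1. The middle 50% of these TEs changed by 16.2 to 32.5 points. Of them 131 (89.7%) were higher by at least 10 points, against 51.8% of all intergenic TEs. Only 2 of 837 chromosome windows had a larger mean change, and these windows ran from -14.1 to 28.0. In CG the level went from 76.4% to 90.7% over 140 TEs, a change of 14.2 points, against 5.71 on chromosome 1, and 4 of 831 chromosome windows exceeded it. In CHH the same sequence was unremarkable, with a change of 32.9 points against 31.5 on chromosome 1. Its leaf level in CHG was close to that of chromosome 1, at 59.2%, so the gap lay in the EC level.

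chr9_random followed, with intergenic CHG at 58.6% in leaf and 75.2% in EC, a change of 16.7 points over 148 TEs, against 8.33 on chromosome 9. chr18_random went from 64.9% to 78.5%, a change of 13.6 points over 1423 TEs against 8.30 on chromosome 18. chr16_random changed by 12.4 points and chr17_random by 11.03, against 9.29 and 6.68 on their chromosomes. These 5 sequences and chr13_random, at 10.2 against 9.63, rose more than their own chromosomes in CHG, and the other 5 rose less or did not rise.

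chr5_random stood at the other end. Its intergenic TEs had a CHG level of 56.2% in leaf and 55.9% in EC, a change of -0.34 points over 82 TEs, against 8.47 on chromosome 5. Of 837 chromosome windows, 92 lay below that change. Of the 82 TEs 20 (24.4%) were higher and 16 (19.5%) lower by at least 10 points, against 51.8% and 12.3% of all intergenic TEs. It also had the smallest CHH change of the random sequences with 100 or more TEs, 26.9 points against 30.9 on chromosome 5, and 803 of 856 chromosome windows exceeded it. In CG it rose, by 4.8 points. The remaining sequences, chr3_random, chr12_random, chr7_random and chr10_random, changed in CHG by 9.13, 8.0, 7.28 and 5.43 points, against 11.1, 9.57, 9.46 and 11.02 on their chromosomes.

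chr17_random combined a mean rise of 11.03 points in intergenic CHG with a mean fall in CG. Its intergenic CG level was 84.8% in leaf and 83.4% in EC, a change of -1.43 points over 218 TEs. Of these, 32 (14.7%) were lower and 15 (6.88%) higher by at least 10 points, against 8.47% and 19.8% of all intergenic TEs. In CHG 108 of 231 (46.8%) were higher, below the 51.8% of all intergenic TEs, and 16 (6.93%) were lower, against 12.3%. Chromosome 17 had an intergenic CG change of 0.045, and 135 of 831 chromosome windows lay below the value of chr17_random.

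Among genic TEs the largest number of members lay on chr18_random. Their CHG level was 55.6% in leaf and 53.4% in EC, a change of -2.24 points over 236 TEs, against -11.5 on chromosome 18, and 29 of 394 chromosome windows lay above that change. Of these TEs 72 (30.5%) were higher and 74 (31.4%) lower by at least 10 points, against 13.9% and 40.7% of all genic TEs. Their CHH level rose from 1.94% to 26.6%, a change of 24.7 points over 386 TEs against 15.03 on chromosome 18, and 42 of 646 chromosome windows lay above it. Genic TEs on chr18_random thus gained more CHH and lost less CHG methylation than those on chromosome 18.

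Genic TEs on chr12_random and chr3_random lost more CHG methylation than those on their own chromosomes. Genic CHG on chr12_random fell from 54.4% to 39.7%, a change of -14.8 points over 117 TEs against -9.69 on chromosome 12. Of the 117, 66 (56.4%) were lower by at least 10 points, against 40.7% of all genic TEs. On chr3_random the genic CHG change was -10.8 points over 82 TEs against -5.34 on chromosome 3. Its genic CHH change was the smallest of the random sequences with 100 or more TEs, at 12.3 points against 17.7. On chr12_random the genic CHH change was 15.2 points against 16.0. Of 394 chromosome windows, 119 had a lower genic CHG change than chr12_random and 238 a lower one than chr3_random. The value of chr3_random was thus less negative than the window median of -12.03. The sequences between chr3_random and chr18_random were chr13_random, chr7_random, chr5_random, chr17_random and chr10_random. They changed in CHG by -7.27, -7.09, -6.52, -5.75 and -4.41 points, each less negative than its own chromosome. chr1_random and chr16_random had mean rises of 1.56 and 3.34 points, over 19 and 10 TEs. The single genic TE of chr9_random went from 54.3% to 85.1%.

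The CG change of genic members was positive on each of the 9 random sequences with at least 10 such TEs, from 0.73 points on chr17_random to 5.57 on chr1_random, where it rested on 15 TEs. chr16_random had 9 listed genic TEs and is not counted here, with a change of -3.94. The TEs of chr11_random and chr4_random pooled changed by -12.8 points in genic CHG (31 TEs) and by 4.97 points in intergenic CHG (36 TEs).

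Position within the sequences was described by the distance from an intergenic TE to the nearest genic TE on the same sequence. Random sequences may join pieces whose order is not known, so such distances hold along the sequence as deposited. In CHG, members within 5 kb of a genic TE went from 64.6% to 69.7%, a change of 5.09 points over 426 TEs. Members from 5 to 20 kb away changed by 9.66 points (1243 TEs) and those beyond 20 kb by 13.5 points (2282 TEs). The chromosomes gave 4.83, 7.36 and 12 points, so the pooled change was larger at greater distance in both sets. On single sequences this order held for chr3_random, chr12_random, chr13_random and chr18_random. On chr5_random, chr7_random, chr9_random, chr10_random, chr16_random and chr17_random the TEs beyond 20 kb changed less than those from 5 to 20 kb away, for example by 10.7 against 19.7 points on chr16_random and by 10.1 against 15.3 on chr17_random. In CHH the 3 classes of members changed by 31.6, 32.0 and 31.4 points, with no such order.

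More of the members lay far from genic TEs, with 57.8% beyond 20 kb against 46.2% on the chromosomes. When the chromosome TEs were weighted to the same distances, a comparison chosen after seeing the data, the intergenic CHG difference was 1.60 points in place of 2.25. Across the 11 random sequences the share of intergenic TEs beyond 20 kb ran from 23.2% on chr5_random to 81.5% on chr1_random and 89.9% on chr9_random, and it ran with the CHG change (Pearson's r = 0.85, Spearman's rho = 0.88). Without chr1_random r was 0.91. Over the 19 chromosomes, where that share ran only from 39.8% to 53.4%, r was 0.28 and rho 0.20. These correlations are descriptions over sequences that share both libraries. On chr1_random the 4 TEs within 5 kb changed by 28.8 points, the 23 from 5 to 20 kb away by 19.9 and the 119 beyond 20 kb by 26.1, each above the chromosome value for its distance and in no order of distance. On chr5_random the 19 TEs beyond 20 kb changed by -7.76 points.

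**Figure D4:**
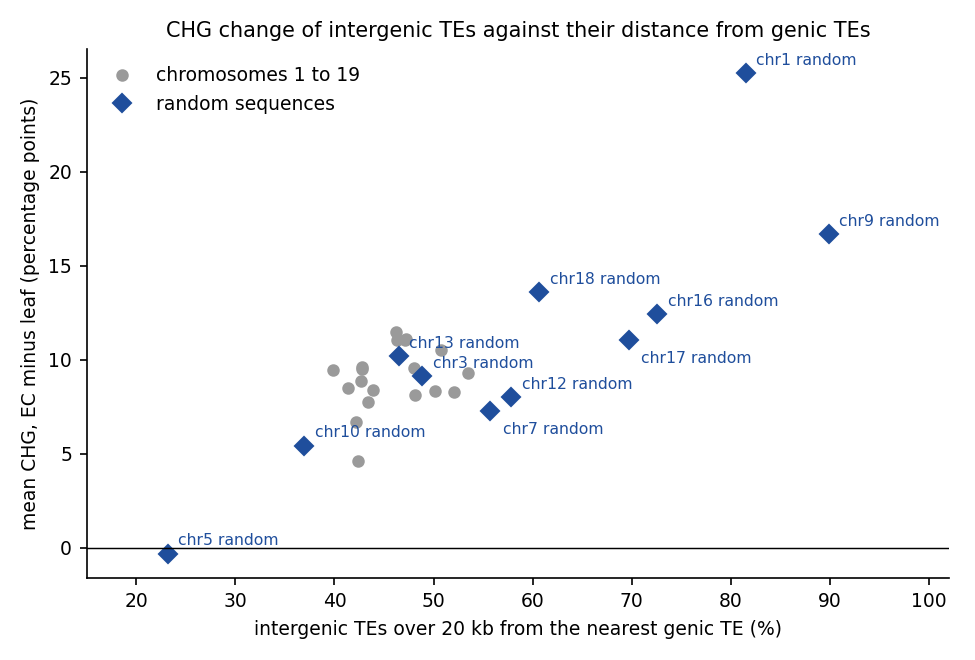
Mean CHG change of intergenic TEs from leaf to EC, in percentage points, against the share of those TEs that lie over 20 kb from the nearest genic TE, for 11 random sequences (diamonds) and 19 chromosomes (grey). The random sequences run from chr5_random, at 23.2% and -0.34 points, to chr9_random, at 89.9% and 16.7 points, and chr1_random lies highest at 25.2 points.

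Windows of 250 kb with at least 30 TEs gave 59 windows on the random sequences and 1183 on the chromosomes. The intergenic CHG change had a median of 11.1 points and was positive in 57 of the 59 (96.6%), against a median of 9.79 points and 90.1% positive on the chromosomes. Of the 59, 6 (10.2%) lay above the 95th percentile of the chromosome windows, which was 18.9 points. All of these were on chr1_random and chr18_random, and no other random sequence had such a window. On chr1_random the windows stood at 29.7 and 23.4 points, on chr9_random at 18.1 and 15.6, and on chr5_random at 0.90 and -2.17. chr18_random had 19 windows from 4.06 to 22.1 points, all positive, and chr13_random had 11 windows from -1.91 to 17.3, of which 10 were positive. Both windows of chr1_random thus lay above that percentile. Those of chr9_random lay above the upper quartile of the chromosome windows (13.6 points) and those of chr5_random below the lower quartile (4.81 points). The windows of chr9_random and chr5_random were still within the 5th to 95th percentile, which ran from -3.48 to 18.9 points.

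**Figure D5:**
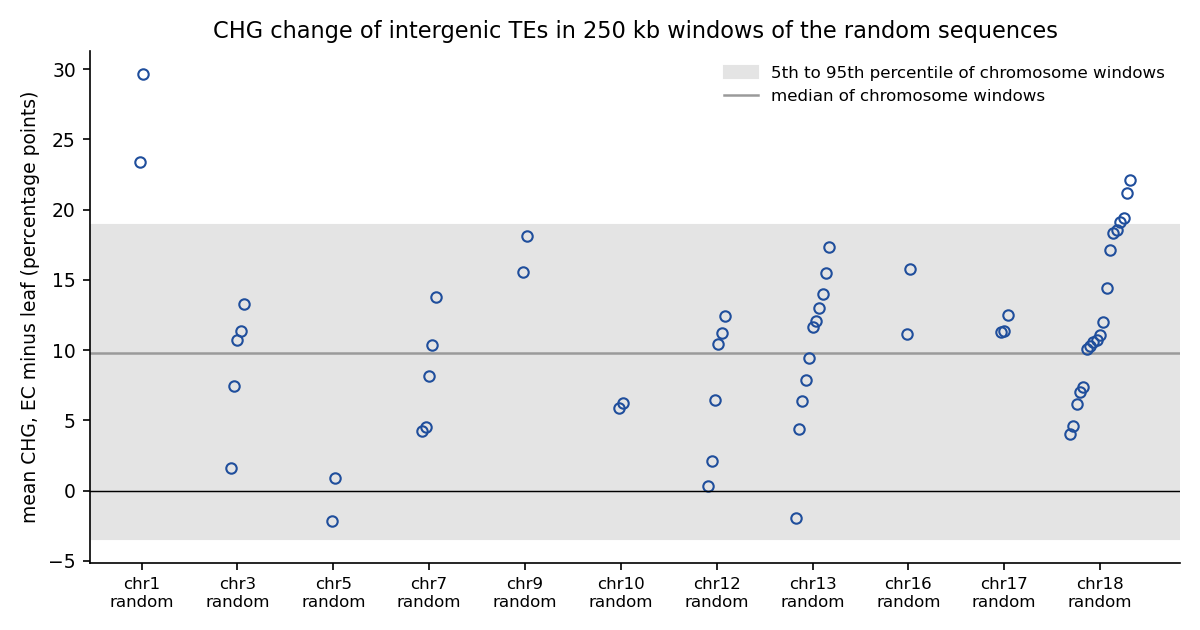
Mean CHG change of intergenic TEs, in percentage points, in 250 kb windows with at least 30 such TEs, sorted by value within each random sequence (open circles), over the 5th to 95th percentile (grey) and the median (line) of chromosome windows. The 2 windows of chr1_random lie at 23.4 and 29.7 points and the 19 windows of chr18_random spread from 4.06 to 22.1 points.

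chr18_random was divided at 2000000 bp after its window values had been seen. Windows of both kinds lay on either side, since the lowest of its 19 windows, at 4.06 points, was the first one and a window of 17.1 points lay after the division. Intergenic TEs before that position changed in CHG from 63.7% to 81.1%, by 17.4 points (714 TEs), and those after it from 66.0% to 75.8%, by 9.80 points (709 TEs). Genic TEs rose by 8.18 points before it (54 TEs) and fell by 5.33 points after it (182 TEs). The genic CHH change was 29.5 points before it and 23.0 after it. The stretch before the division held fewer genic TEs, with 98 of 1179 TEs (8.31%) against 291 of 1442 (20.2%). Both stretches had a larger intergenic CHG change and a larger genic CHH change than chromosome 18.

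Single elements were taken by length, which does not depend on methylation, as the longest TE of each class on each random sequence that was listed in all 3 contexts. Positions are those of the 12X assembly of the PN40024 genome, counted from 1. The 11 longest intergenic TEs measured 6389 to 13913 bp. CHG was higher in EC in 11 of 11, by 2.30 to 27.8 points with a median of 13.8, and CHH was higher in 11 of 11, by 27.6 to 40.7 points. CG was higher in 8 and lower in 3, which lay on chr7_random, chr16_random and chr17_random. These long elements thus followed the means of their class in CHG and CHH.

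On chr1_random the longest intergenic TE lay at chr1_random:423104-436437 on the plus strand. Its CG level was 76.0% in leaf and 92.3% in EC, its CHG level 69.6% and 88.8% and its CHH level 3.77% and 39.2%. On chr9_random the TE at chr9_random:1-10086 had the lowest leaf levels of the 11, with CG at 62.8% in leaf and 73.7% in EC and CHG at 45.0% and 72.8%. On chr16_random the TE at chr16_random:701328-710991, on the minus strand, had the smallest CHG change, from 83.0% to 85.3%. The smallest CHG change was seen where the leaf level was highest and the largest where it was lowest. Since the change is EC minus leaf, it is not independent of the leaf level, and these are single elements.

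The 11 longest genic TEs measured 1016 to 13546 bp and were less uniform. CHG was higher in EC in 4 and lower in 7, by -24.3 to 30.8 points with a median of -1.18, while CHH was higher in 11 of 11, by 18.03 to 54.9 points. The longest, at chr18_random:3899191-3912736 on the plus strand, rose in CHG from 74.4% to 89.3% and in CHH from 3.29% to 40.2%. At chr3_random:720201-726517, also on the plus strand, CHG fell from 78.2% to 53.9% while CG went from 88.8% to 91.4% and CHH rose from 3.69% to 22.7%. At chr16_random:646655-652352 the CG level fell from 88.2% to 66.5%, with CHG at 78.1% in leaf and 77.0% in EC. The CG fall on that element left its CHG level in place, and its CHH level still rose from 3.38% to 44.4%.

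The largest changes among members of at least 1000 bp are given as a description, since they were picked by their values. The largest genic CHG fall was at chr18_random:3119898-3123529 on the minus strand, from 86.7% to 18.8%, where CG stayed high, at 96.2% in leaf and 100% in EC, and CHH was 2.1% and 2.78%. The largest intergenic CHG fall was at chr13_random:47583-52256, from 80.5% to 10.8%, and CG fell there too, from 74.1% to 52.3%, with CHH at 5.44% and 6.45%. Both of these elements thus lacked the rise in CHH that most members showed. The largest genic CHG rise, at chr1_random:28398-32241, went from 10.3% to 90.2%, with CHH at 3.14% and 41.5%.

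chr13_random carried several of the extremes in intergenic TEs. The largest CHG rise, at chr13_random:396421-398371, went from 27.4% to 91.6%, with CG at 81.5% and 90.8%. Within 10 kb of it, at chr13_random:405412-407734, lay the largest CG rise, from 36.9% to 92.4%, where CHG rose from 23.1% to 76.3% and CHH from 0.28% to 39.1%. The largest CG fall, at chr13_random:1182236-1184074, went from 85.4% to 47.7%, with CHG at 65.0% and 20.01% and CHH at 3.39% and 15.6%. On these elements CG and CHG moved the same way.

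In genic TEs, the largest CG rise, at chr3_random:1167656-1168725, went from 43.4% to 84.6% and CHG rose with it from 37.3% to 74.3%. The largest genic CG fall, at chr13_random:794056-795406, went from 100% to 74.7%, with CHG at 71.7% and 65.1%. For CHH the largest genic rise, at chr18_random:3619125-3620499, went from 7.31% to 62.8%. The largest intergenic rise in CHH, at chr11_random:68563-69725, went from 0% to 73.3%, with CG at 60.6% and 95.2%. No genic member of at least 1000 bp fell in CHH, the lowest being chr10_random:222953-223990 at 0.65% and 0.79%. The largest intergenic CHH fall, at chr12_random:572807-574455, went from 7.86% to 4.02%, and CHG fell there from 47.7% to 11.5%.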

How the data were processed

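Whole-genome bisulphite libraries of leaf and EC (1 each, assigned from their tissue labels) were compared. The authors annotated TEs with RepeatMasker, mapped reads to the 12X assembly of PN40024 with BS-Seeker2 and averaged methylation per TE with cgmaptools, keeping those whose effective coverage exceeded 20 in each library. The values were deposited by the authors as fractions between 0 and 1, 1 per TE and library, in 6 tables, and were multiplied to percentages. They carry no read numbers, cytosine numbers or TE names, so depth and its precision are unknown. Reads of near-identical copies on a random sequence and a chromosome may be placed on either, and a C-to-T difference between Chardonnay and PN40024 reads as lost methylation in both tissues. Neither was tested. The deposited starts count from 0 (4 TEs start there), and 1 was added to each. The other 2 tables, profiles averaged over features, were not used.

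Every TE had the same weight in a mean. With 1 library per tissue no test was made, and EC minus leaf was given with its SD over random sequences. Python 3.11.15, pandas 2.3.3, numpy 2.4.6, statsmodels 0.14.6 and matplotlib 3.10.9 were used, and the procedures were tested on simulated data with known changes. The TEs named were the longest per class on each random sequence with 100 or more TEs, among those listed in 3 contexts, and, for each class and context, the largest rise and fall of any TE from 1000 bp up. Alternatives covered medians, length weights, length and level minima, TEs listed in 3 contexts, other limits, leaving out each random sequence, equal weights per sequence, and chromosome TEs weighted to the members' lengths, leaf levels, chromosomes or distances from genic TEs. The members and comparisons were chosen with earlier results of these data known.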

Additional observations from a re-analysis of the deposited data

Results flagged for a closer look

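In 6 cases the mean change on a random sequence had the opposite sign to that on its own chromosome, and none of these differences was tested. For genic CG the change was 0.73 points on chr17_random (43 TEs) against -0.92 on chromosome 17, and 1.995 points on chr18_random (213 TEs) against -1.29 on chromosome 18. For genic CHG it was 1.56 points on chr1_random (19 TEs) against -11.5 on chromosome 1, and 3.34 points on chr16_random (10 TEs) against -7.83 on chromosome 16. For intergenic TEs it was -1.43 points in CG on chr17_random (218 TEs) against 0.045 on chromosome 17, and -0.34 points in CHG on chr5_random (82 TEs) against 8.47 on chromosome 5.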

How the results depend on the processing

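Of 735 values recomputed for 50 results, 683 stayed within the spread or the factor of 1.5 set for them, 51 moved beyond it and 1 reversed. The sign changed in 12, all of them differences in CHH from the chromosomes, of which 11 were of the intergenic difference of 0.051. The spread for changes and levels was the SD over random sequences, and for differences the SD over chromosomes. A large shift can thus count as within it. The genic CHG difference of 1.48 without chr18_random, in place of 3.21, was within its spread of 2.28. Using TEs at 20% or more in leaf or EC, the genic CHH change was 32.6 points and its difference from the chromosomes reversed to -0.10, and for intergenic TEs these were 35.4 and -1.52. In CHH this minimum selects TEs almost only by their EC level. The intergenic CHH difference was -0.71 with length weights, -0.58 for TEs listed in all 3 contexts and -0.61 with equal weight per sequence, and the genic CHG difference was 0.83 by medians. A minimum difference of 20 points gave 3.99% higher and 2.26% lower in genic CG, 8.72% and 23.3% in genic CHG, 39.2% higher in genic CHH, 8.19% and 1.66% in intergenic CG, and 26.9% and 5.49% in intergenic CHG. The share higher in EC for CHH was 95.7% (genic) and 99.0% (intergenic) with no minimum level, and 100% (genic) at 40%. With CHG limits of 10% and 70%, 21.5% of genic members were low and 37.4% high in leaf, and 25.3% and 28.7% in EC, while for intergenic members these were 4.05%, 49.6%, 2.71% and 76.3%.

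Leaving out each random sequence in turn, the genic CHH difference ran from 1.09 to 4.17 points. The share higher in EC ran from 30.7 to 39.9% in genic CHG, 99.7 to 100% in genic CHH, 67.8 to 70.1% in intergenic CG and 78.5 to 82.3% in intergenic CHG. The high CHG share in EC ran from 33.7 to 41.0% (genic) and 81.4 to 84.3% (intergenic), and the low one from 4.08 to 5.46% (intergenic). TEs lower in CHH ran from 0 to 0.107% (genic) and 0 to 0.0246% (intergenic). No paired analysis was possible because each tissue has 1 library. The depth is unknown, so no value could be weighed by its reads.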
